A study of Bos taurus with 8 samples.

Results

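The genes described here are 43 genes of mitosis, the spindle checkpoint and cytokinesis, called the core mitosis genes below and measured in day 6 embryos of Holstein and Jersey cattle. Members were taken by gene symbol, older synonyms included, from the annotation of the 43794 probes of the EmbryoGENE bovine array, a 2-colour oligonucleotide array built for early embryos. Of these genes, 41 had a probe, 64 probes in all, of which 1 was found under an older name (MAD2 for MAD2L1). The checkpoint kinase TTK and the centromeric histone gene CENPA had no probe under their names and were not analysed here. Of the 64 probes 56 passed the filter on dim probes, and all 41 genes kept at least 1 probe.

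Both breeds were hybridised together on 8 arrays, 4 with Holstein RNA in Cy5 and 4 with Jersey RNA in Cy5. The titles number the arrays 228 or 229 with areas 1 to 4, read here as 2 slides of 4 arrays. Donors of both breeds had follicles over 8 mm aspirated before superovulation (FSH, 400 mg in total, with 500 µg doses of an F2α prostaglandin analogue at its end). They were bred with pooled semen, and embryos were flushed from the uterus on day 6. The labels call Holstein embryos tolerant of cryopreservation and Jersey embryos poor performers after freezing. They state 4 replicates per breed with dye swap, but not how many embryos or donors made up a replicate, so the p-values measure the spread between these samples, which may be technical.

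Cells enter mitosis when Cdk1 binds a B-type cyclin and is freed of the inhibitory phosphate that WEE1 adds and CDC25 phosphatases remove. Chromosomes are then compacted by condensin and attached to the spindle through kinetochores, while the spindle checkpoint holds back the anaphase-promoting complex until every chromosome is attached. That complex, with CDC20, marks securin and cyclin B for destruction, which frees separase to part the sister chromatids, and the central spindle then directs cytokinesis. In cattle embryos the first cleavages run on transcripts stored in the oocyte, and by the morula and blastocyst stages of day 6 the embryo transcribes its own genome.

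A value per array is log2(Holstein / Jersey) of background-corrected, loess-normalized intensities. Averaging the 2 arrays of opposite dye orientation that form a pair removes the dye effect, and limma tested the 4 means against 0. Levels are log2 intensities of one probe in each breed, averaged over the same pairs, and are not comparable between probes. Each gene is given by its brightest kept probe unless another is named, and chromosomes are those of the RefSeq annotation of ARS-UCD2.0.

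Between 41.7% and 76.1% of all probes lay above background for Holstein on an array and between 42.8% and 80.8% for Jersey. The lowest share for either breed was on array 7, the array of pair 4 with Holstein in Cy5. On the other 7 arrays the lowest shares were 53.9% for Holstein and 47.6% for Jersey. Of the 41 core mitosis genes, 36 were above background in both breeds on all 8 arrays by their brightest probe. Among markers of the embryo itself, 12 of 13 listed trophectoderm genes were measured, CDX2 being above background on 7 arrays for Holstein and 8 for Jersey, and POU5F1 and NANOG of the inner cell mass were above background on all 8 arrays for both. By list, 9 of 12 measured trophectoderm genes, 4 of 11 inner cell mass genes and 7 of 9 primitive endoderm genes were above background everywhere in both breeds. Of markers of cells that flushing could bring along, 1 of 7 measured cumulus and granulosa genes, 2 of 6 erythrocyte genes, 2 of 6 leukocyte genes, 0 of 7 uterine and oviduct genes and 0 of 4 sperm genes were.

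None of the core mitosis genes differed between Holstein and Jersey embryos at an adjusted p under 0.05, the lowest being 0.178 for WEE1. In the same limma fit 0% of 32129 kept probes passed (0 probes, smallest adjusted p = 0.0678). An unadjusted p under 0.05 was reached by 5 of the 41 genes, or 12.2%, against a background of 15.9% of 12349 named genes. Of these 5, 4 were higher in Holstein (WEE1, PTTG1, KIF23 and KIF11; 8.45% of all named genes) and 1 was higher in Jersey (SMC4; 7.42% of all named genes). A fit to the 8 separate arrays, with dye as a term and pairs as random blocks, gave 0 core mitosis genes past the adjusted threshold, against 4.47% of 12316 named genes, 2.33% higher in Holstein and 2.14% higher in Jersey. In that fit 6 had an unadjusted p under 0.05. With pairs 1, 2, 3 and 4 left out in turn, the fit to pair means gave 3, 2, 2 and 11 genes with an unadjusted p under 0.05. No matching share of all named genes is given for these counts or for the 6, so they are not read as a result about these genes.

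By sign, 25 of the 41 genes were higher in Holstein and 16 higher in Jersey, with a median log2 ratio of 0.08, against a median of 0.01 over all named genes. That median was 0.01, 0.10, 0.00 and 0.20 without pairs 1, 2, 3 and 4. With median centring in place of loess the split was 31 to 10 and the median 0.22. The 6709 named genes above background everywhere then stood at 0.10, against 0.02 with loess. Individual ratios with loess ran from -0.55 for SMC4 to 1.21 for KIF11. In 8 of 41 genes (19.5%) the direction was the same in all 4 pairs, against 22.9% of all named genes. These were WEE1, NUF2, PTTG1, KIF23 and ECT2, higher in Holstein, and CCNB2, TPX2 and CDC27, higher in Jersey. Since this is RNA of whole embryos, fewer dividing cells and less RNA per cell cannot be told apart.

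**Figure D1:**
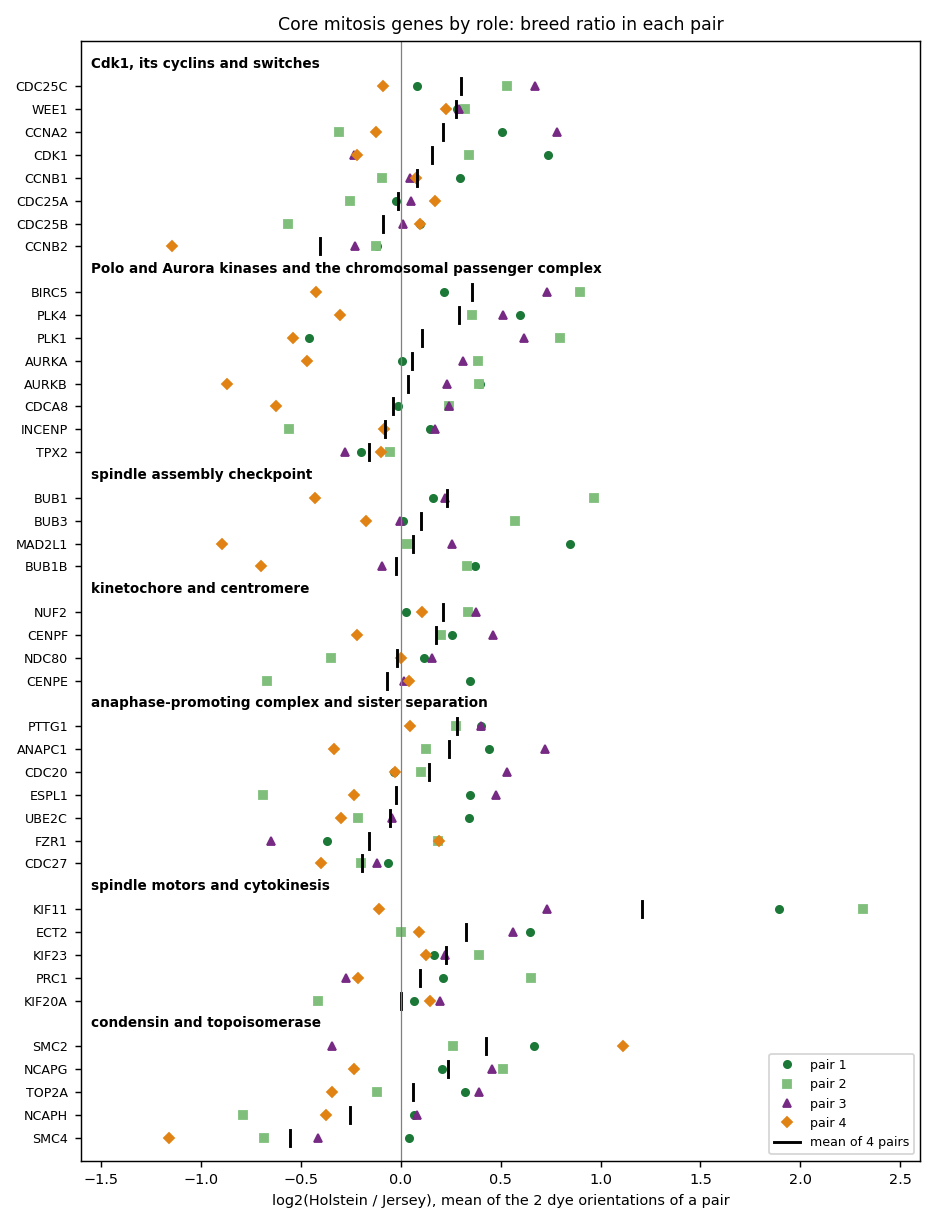
Log2(Holstein / Jersey) of the 41 measured core mitosis genes, grouped by role, on the horizontal axis. Each symbol is 1 of 4 pairs (mean of 2 arrays of opposite dye orientation) and the bar is the mean of 4 pairs. Pair 4 lies lowest for 23 of 41 genes, and KIF11 in pairs 1 and 2 lies farthest to the right.

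The Cdk1 group held 5 genes higher in Holstein and 3 higher in Jersey, with a median of 0.12. WEE1 (probe EMBV3_41500, chromosome 15), the kinase that keeps Cdk1 inactive, had levels of 8.26, 8.30, 8.45 and 8.21 in Holstein embryos over pairs 1 to 4, and of 7.98, 7.98, 8.16 and 7.98 in Jersey embryos. The breeds did not overlap, the lowest Holstein level lying above the highest Jersey level. Its log2 ratio was 0.28 ± 0.06 (SE, n = 4 pairs), a 1.21-fold difference with limma adjusted p = 0.178, seen on 7 of 8 arrays. The 4 pair ratios, 0.28, 0.32, 0.29 and 0.23, were the closest together of all core mitosis genes. Single arrays spread more, the 0.29 of pair 3 being the mean of 0.78 on array 5 and -0.20 on array 6. In the random block fit the SE of WEE1 was 0.11 and its adjusted p 0.233. Over the core mitosis genes 4 of 41 (9.76%) had breeds that did not overlap, against 5.98% of named genes.

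CCNB2 (EMBV3_02693, chromosome 10), a B-type cyclin, had levels of 11.17, 11.49, 10.98 and 10.24 in Holstein embryos and of 11.28, 11.61, 11.21 and 11.38 in Jersey embryos. The breeds overlapped, and Holstein in pair 4 stood well below the other 7 levels. The ratio averaged -0.40 ± 0.20 (limma adjusted p = 0.453) and was -0.16 without pair 4. CDC25C (EMBV3_25044, chromosome 7), a phosphatase that activates Cdk1, had ratios of 0.08, 0.53, 0.67 and -0.09 over pairs 1 to 4. Its mean was 0.30 ± 0.15 (adjusted p = 0.462), and 0.17 without pair 3. Of the others, the cyclin CCNA2 was at 0.21 ± 0.20, CDK1 at 0.16 ± 0.19, the cyclin CCNB1 at 0.08 ± 0.09, and the phosphatases CDC25A and CDC25B at -0.01 ± 0.09 and -0.09 ± 0.13. CCNA2 pointed to Holstein in pairs 1 and 3 (0.51 and 0.78) and to Jersey in pairs 2 and 4 (-0.31 and -0.12).

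Among the Polo and Aurora kinases and the chromosomal passenger complex the median was 0.05, 5 genes pointing to Holstein and 3 to Jersey, and none had an unadjusted p under 0.05. TPX2 (EMBV3_24844, chromosome 13), which activates Aurora A on spindle microtubules, had ratios of -0.20, -0.05, -0.28 and -0.10. All 4 pairs were below 0, with a mean of -0.16 ± 0.07 (limma adjusted p = 0.414), and with the authors' deposited values the mean was -0.10. Survivin, BIRC5, the passenger subunit that docks on chromatin, stood at 0.36 ± 0.23 and its second probe at -0.10. PLK4, the kinase that starts centriole duplication, stood at 0.29 ± 0.16. Both BIRC5 and PLK4 were higher in Holstein in pairs 1 to 3 and lower in pair 4 (-0.42 and -0.30).

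PLK1, a kinase needed from mitotic entry to cytokinesis, ran from -0.54 in pair 4 to 0.80 in pair 2 and averaged 0.11 ± 0.27. Its brightest probe was above background on 6 arrays for Holstein and 5 for Jersey. The spindle pole kinase AURKA was at 0.06 ± 0.16, the centromeric kinase AURKB at 0.04 ± 0.24, the passenger scaffold INCENP at -0.08 ± 0.14 and the passenger subunit CDCA8 at -0.04 ± 0.16. AURKB held together in pairs 1 to 3, at 0.40, 0.39 and 0.23, and stood at -0.87 in pair 4.

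The 4 measured checkpoint genes had a median of 0.08, 3 of them above 0, and adjusted p of 0.744 or more in limma. The checkpoint kinase BUB1 was at 0.23 ± 0.22, its partner BUB3 at 0.10 ± 0.14, MAD2L1, which sequesters CDC20, at 0.06 ± 0.28, and BUB1B at -0.02 ± 0.20. Each of them was below 0 in pair 4, at -0.43, -0.17, -0.89 and -0.70. In pair 1 the same genes stood at 0.16, 0.01, 0.85 and 0.37. MAD2L1 was read by 2 bright probes, whose means were 0.06 and -0.03. The RefSeq entry of that name is short, so the probes' locus is not settled and they may read a copy of the checkpoint gene.

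Kinetochore genes divided evenly, with 2 higher in each breed. NUF2 (EMBV3_02922, chromosome 3), a subunit of the complex that grips microtubules, had ratios of 0.03, 0.34, 0.38 and 0.11, a mean of 0.21 ± 0.09 (limma adjusted p = 0.379). Its complex partner NDC80 was at -0.02 ± 0.11. The outer kinetochore protein CENPF stood at 0.18 ± 0.12, and CENPE, a kinesin that carries chromosomes to the equator, at -0.07 ± 0.17.

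In the anaphase-promoting complex and sister separation, 3 genes pointed to Holstein and 4 to Jersey. PTTG1 (EMBV3_22436, chromosome 7), the separase inhibitor securin, had levels of 12.35, 12.11, 12.11 and 11.99 in Holstein embryos and of 11.95, 11.83, 11.71 and 11.94 in Jersey embryos. The breeds did not overlap, though pair 4 parted them by only 0.05. The ratio was 0.28 ± 0.09, a 1.22-fold difference (limma adjusted p = 0.255, unadjusted p = 0.0205), and the second probe stood at 0.26 ± 0.11. On that second probe the breeds overlapped, with a ratio of -0.13 in pair 4. CDC27 (EMBV3_23658, chromosome 19), a scaffold subunit of the complex, had ratios of -0.06, -0.20, -0.12 and -0.40, averaging -0.20 ± 0.08 (adjusted p = 0.383) and -0.13 without pair 4. Its second kept probe pointed the other way, at 0.20 ± 0.10.

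The large scaffold subunit ANAPC1 stood at 0.24 ± 0.18 and the activator CDC20 at 0.14 ± 0.12. FZR1, the activator used at mitotic exit and in G1, was at -0.16 ± 0.17, with -0.37 and -0.65 in pairs 1 and 3 and 0.19 in each of pairs 2 and 4. The ubiquitin-conjugating enzyme UBE2C was at -0.05 ± 0.12 and the separase gene ESPL1 at -0.02 ± 0.21. ESPL1, whose product securin inhibits, was higher in Holstein in pairs 1 and 3 and higher in Jersey in pairs 2 and 4.

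Spindle motor and cytokinesis genes had the highest median of the 7 role groups, 0.23, with 4 of 5 above 0. KIF11 (EMBV3_02686, chromosome 26), the kinesin that pushes spindle poles apart, had levels of 11.90, 12.56, 11.54 and 11.04 in Holstein embryos and of 10.01, 10.24, 10.81 and 11.14 in Jersey embryos. Holstein was well above Jersey in pairs 1 and 2, moderately above in pair 3 and level with it in pair 4. The ratio averaged 1.21 ± 0.42, a 2.31-fold difference, with unadjusted p = 0.0324 and limma adjusted p = 0.309. In the random block fit the adjusted p was 0.0674. Without array 7 of pair 4 in that fit it was 0.0458 with a ratio of 1.39. Leaving out that array was chosen after the data were seen, and 1106 probes passed there. Its other probe lay below background for both breeds on all arrays.

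KIF23 (EMBV3_16700, chromosome 10), a kinesin of the centralspindlin complex, had levels of 10.43, 10.47, 10.37 and 10.30 in Holstein embryos and of 10.26, 10.08, 10.15 and 10.17 in Jersey embryos. Again the breeds did not overlap. The difference was small, 0.23 ± 0.07 or 1.17-fold, with limma adjusted p = 0.280, and was seen on 6 of 8 arrays. In the random block fit its SE was 0.11 and its adjusted p 0.368. ECT2 (EMBV3_37011, chromosome 1), the exchange factor that activates RhoA at the cleavage furrow and binds centralspindlin, had levels of 9.42, 9.17, 9.41 and 9.17 in Holstein embryos and of 8.78, 9.16, 8.85 and 9.08 in Jersey embryos. They did not overlap, the nearest levels being 9.17 in Holstein and 9.16 in Jersey, and ECT2 was higher in Holstein on 6 of 8 arrays. Its ratio of 0.33 ± 0.14 (adjusted p = 0.384) came mostly from pairs 1 and 3, at 0.65 and 0.56, and its other 2 kept probes stood at 0.19 and 0.21. On both of those the breeds overlapped, the first being at -0.05 in pair 2 and the second at -0.02 in pair 4. The microtubule bundler PRC1 was at 0.10 ± 0.17, and KIF20A, a central spindle kinesin, had the highest p of all core mitosis genes (0.999).

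Condensin subunits pointed both ways. SMC4 (EMBV3_39482, chromosome 1), a core condensin ATPase, had levels of 8.90, 8.82, 8.74 and 7.76 in Holstein embryos and of 8.86, 9.51, 9.15 and 8.91 in Jersey embryos. The breeds overlapped through pair 1, where they were nearly equal. This probe was above background on 7 arrays for Holstein and 8 for Jersey. The ratio was -0.55 ± 0.20, 1.47-fold higher in Jersey, with unadjusted p = 0.0358 and limma adjusted p = 0.321, and it was -0.35 without pair 4.

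SMC2 (EMBV3_31609, chromosome 8), the ATPase that pairs with SMC4, stood at 0.43 ± 0.24 (adjusted p = 0.524), with ratios of 0.67, 0.26, -0.34 and 1.11. Its mean was 0.68 without pair 3 and 0.20 without pair 4, and its second kept probe stood at 0.23. In pair 4 the ATPases of this one complex were thus at 1.11 and -1.16. The condensin I subunits NCAPG and NCAPH stood at 0.24 ± 0.14 and -0.25 ± 0.17, and topoisomerase TOP2A, which untangles sister chromatids, at 0.06 ± 0.15. Outside the 12 genes of smallest p, the other 29 core mitosis genes had ratios between -0.25 and 0.36, with SE of 0.09 to 0.28 and adjusted p of at least 0.526.

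**Figure D2:**
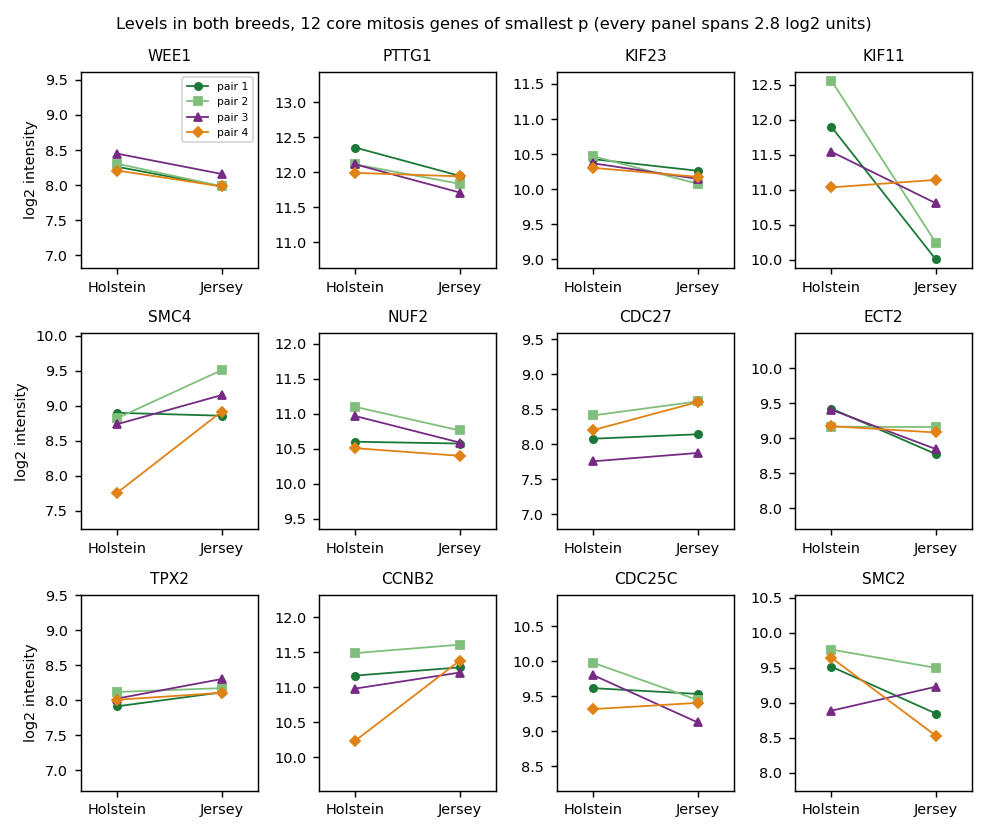
Log2 intensity of 1 probe per gene in Holstein (left) and Jersey (right) embryos for the 12 core mitosis genes of smallest p. Each line joins the breeds of 1 of 4 pairs, and every panel spans the same range. WEE1, PTTG1, KIF23 and ECT2 lie higher in Holstein without overlap, while CCNB2 and SMC4 part most in pair 4.

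Where genes had several kept probes, all probes of a gene shared 1 sign in 7 of 12 (BUB3, CCNA2, ECT2, NCAPH, PLK1, PTTG1 and SMC2). Both signs occurred in 5, AURKB, BIRC5, CDC25B, CDC27 and MAD2L1. The second probes of BUB3, CCNA2 and PLK1 stood near 0, at 0.008, 0.003 and 0.012, so their shared sign says little. Among genes of both signs, CDC25B likewise had probes at -0.02 and 0.02. No matching share over all genes with several probes is given. A dye effect passed the adjusted threshold for 3 of 41 genes, CCNB1, CDCA8 and TOP2A (7.32%), against 23.6% of named genes, and the pair means cancel it.

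The core mitosis genes did not point the same way in every pair. In pairs 1, 2 and 3 their median ratio was 0.21, 0.19 and 0.22, and 33, 25 and 30 of the 41 genes were higher in Holstein. In pair 4 the median was -0.21 and 29 of 41 were higher in Jersey. Over all named genes the medians were between 0.00 and 0.01 in every pair. Both arrays of pair 4 had a negative median, -0.11 on array 7 and -0.22 on array 8, and each of the other 6 arrays a positive one, between 0.11 and 0.28.

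This sign in pair 4 depended on the normalization. With median centring the pair 4 median of the core mitosis genes was 0.11, with 24 of 41 higher in Holstein. Only array 7 changed sign, its median being 0.29 with median centring and -0.11 with loess. Array 8 stayed below 0, at -0.08 and -0.22. The bright named genes, those above background everywhere, stood at 0.27 in pair 4 under that scaling, against 0.03 to 0.05 in the other pairs. With loess the bright named genes were at 0.03 in pair 4. The deposited value table, with its sign turned to Holstein over Jersey, gave -0.12 for the core mitosis genes in pair 4, and scaling between arrays gave -0.24.

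A gene by gene count was made after this was seen. In 11 of 41 core mitosis genes (26.8%) the ratio was above 0 in pairs 1 to 3 and below 0 in pair 4, and in 0 of 41 the reverse held. The 11 were CDC25C, PLK4, AURKA, AURKB, BIRC5, BUB1, MAD2L1, CENPF, ANAPC1, KIF11 and NCAPG. Over all named genes 7.68% had that pattern, and 8.47% of the bright ones. With median centring the count was 8 of 41, against 5.51% of named genes, and with the deposited values 14 of 41, against 8.32%.

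**Figure D3:**
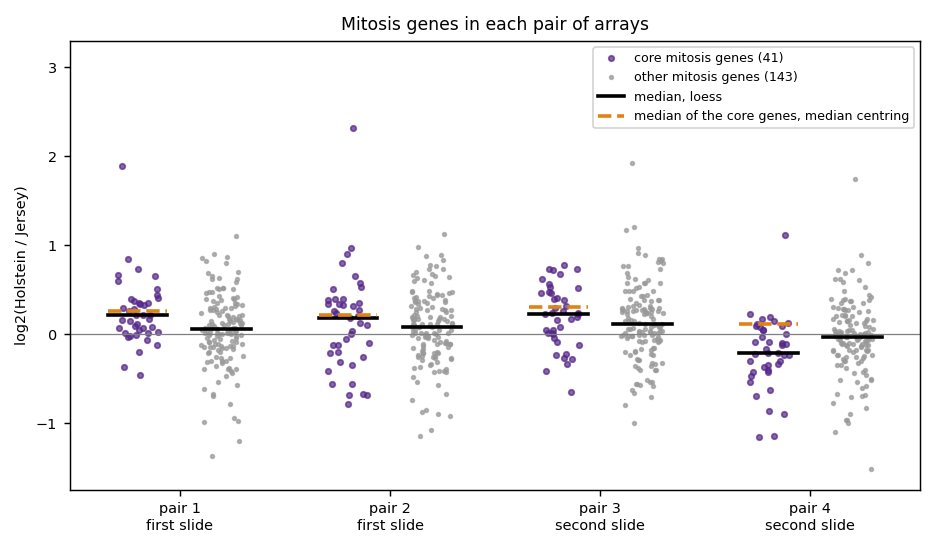
Log2(Holstein / Jersey) in each of 4 pairs for the 41 core mitosis genes (purple) and 143 other mitosis genes (grey), 1 point per gene. Black bars are medians with loess and dashed orange bars medians of the core mitosis genes with median centring. The loess median of the core mitosis genes is about 0.2 in pairs 1 to 3 and -0.21 in pair 4, where median centring gives 0.11.

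Spread between pairs was accordingly wide. The SD of the 4 pair ratios had a median of 0.39 over the 41 genes, against 0.23 over all named genes and 0.30 over the bright ones. It ran from 0.04 for WEE1 to 1.10 for KIF11.

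Other transcripts moved with pair 4. The trophectoderm list, 12 of 13 genes measured, had medians of 0.02, 0.12 and 0.23 in pairs 1 to 3 and of -0.33 in pair 4, and its summed log2 level was 16.74 to 17.18 in Holstein embryos and 16.87 to 17.06 in Jersey embryos. Within it the transcription factor TFAP2A had ratios of 1.57, 3.02, 1.95 and -2.56, and the keratin KRT19 0.74, 0.92, 1.72 and -2.13. Both were picked for their own values. By mean ratio the list was split, 7 genes higher in Holstein and 5 higher in Jersey, with a median of 0.06. The inner cell mass list, 11 of 12 genes measured, had medians of -0.07, -0.21, 0.10 and -0.16, and summed levels of 13.67 to 14.41 in Holstein embryos and 13.84 to 14.31 in Jersey embryos. The part of trophectoderm content, and of the low share of probes above background on array 7, in the pair 4 values was not tested. Without array 7, left out after the data were seen, the median of the core mitosis genes was 0.14 in the random block fit. There 1 of them, KIF11, passed the adjusted threshold, in a fit where 1106 probes passed in all.

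Slides, as read from the numbers in the titles, were compared as the only batch to be had from them. Pairs 1 and 2 lay on the first slide and pairs 3 and 4 on the second. No core mitosis gene differed between slides at an adjusted p under 0.05 in limma. At an unadjusted p under 0.05, 4 of 41 genes (9.76%) did, KIF11, CDK1, PRC1 and BUB1B, against 4.81% of named genes. KIF11 averaged 2.10 on the first slide and 0.31 on the second (unadjusted p = 0.00589). CDK1 had ratios of 0.63, 0.85, 0.44 and 0.24 on arrays 1 to 4 and of -0.27, -0.20, -0.28 and -0.16 on arrays 5 to 8. It was thus higher in Holstein on every array of the first slide and higher in Jersey on every array of the second (means 0.54 and -0.23, unadjusted p = 0.0142).

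PRC1 averaged 0.43 and -0.24 on the 2 slides and BUB1B 0.35 and -0.39. Over all 41 genes the first slide had a median of 0.18 and the second one of 0.05. Erythrocyte markers also differed by slide, with list medians of -0.72 and -0.41 in pairs 1 and 2 and of 0.03 in pairs 3 and 4. Of 8 listed genes 6 were measured, and their summed level was 10.25 to 10.56 in Holstein embryos and 10.82 to 12.45 in Jersey embryos. The globin HBG stood at -4.22, -3.84, 0.13 and 0.16 over pairs 1 to 4. The macrophage marker CD68 had -1.41, -1.17, 0.35 and 0.55, within a leukocyte list of which 6 of 9 genes were measured, with summed levels of 10.20 to 10.91 in Holstein embryos and 10.69 to 11.21 in Jersey embryos. The leukocyte list as a whole had medians of -0.14 on the first slide and -0.13 on the second, and CD68 was picked for its own values. The part of these markers in the slide values of KIF11 and CDK1 was not tested.

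**Figure D4:**
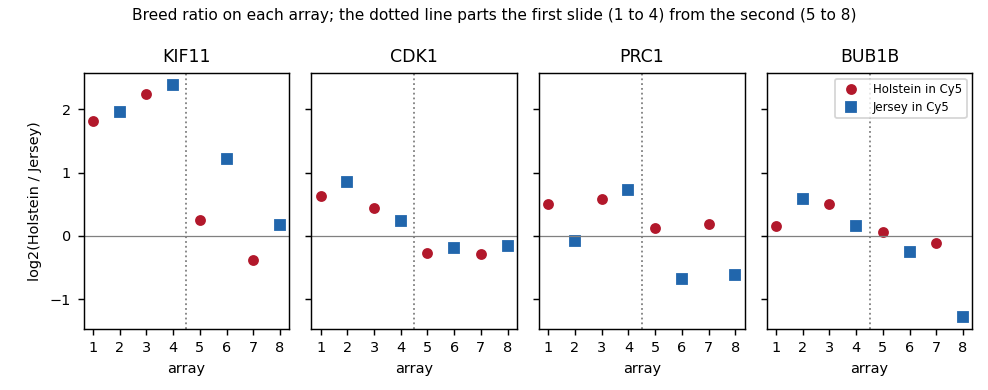
Log2(Holstein / Jersey) on each of 8 arrays for KIF11, CDK1, PRC1 and BUB1B, the 4 core mitosis genes with an unadjusted p under 0.05 for slide. Circles are arrays with Holstein in Cy5 and squares arrays with Jersey in Cy5. CDK1 is above 0 on arrays 1 to 4 and below 0 on arrays 5 to 8, and KIF11 is highest on arrays 1 to 4.

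Beyond these genes, 143 other mitosis genes in 9 lists were measured, with 85 higher in Holstein and 58 higher in Jersey and a median of 0.06. None passed the adjusted threshold on pair means. An unadjusted p under 0.05 was reached by 36 (25.2%, against 15.9% of all named genes), 25 higher in Holstein and 11 higher in Jersey (8.45% and 7.42% of all named genes). In the random block fit 7 passed, or 4.93%, close to the 4.47% of all named genes. MAD1L1, TACC1, PPP1CA, CENPI and KIF4A were higher in Jersey and PPP1CC and PPP1CB higher in Holstein. The medians of all 143 by pair were 0.05, 0.08, 0.11 and -0.03.

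Of 9 other checkpoint genes 6 were higher in Holstein. MAD1L1 (chromosome 25), which holds Mad2 at unattached kinetochores, stood at -0.89 ± 0.09, below 0 on 8 of 8 arrays (limma adjusted p = 0.0835 on pair means and 0.00481 with the random block), and was above background on 6 arrays for Holstein and 8 for Jersey. TRIP13, the ATPase that recycles Mad2, was at 0.27 ± 0.07 and ZWILCH, of the complex that brings dynein to kinetochores, at 0.23 ± 0.09. Of the other kinetochore and centromere genes 20 of 27 lay above 0 (median 0.14), as did 6 of the 7 with an unadjusted p under 0.05. Those 7 are 25.9% of the list, against 15.9% of all named genes, 8.45% higher in Holstein and 7.42% higher in Jersey. The share was 25.2% over all other mitosis genes together. By list it ran from 14.3% for centrosome genes to 40.9% for entry, exit and phosphatase genes. CENPK stood at 0.54 ± 0.08, MIS12 at 0.38 ± 0.09 and the X-linked CENPI at -0.46 ± 0.10, though another CENPI probe was at 0.20.

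X-linked genes as a whole were lower in Holstein, with 322 of 443 higher in Jersey and a median of -0.14, and CENPI, the cohesin subunit STAG2 (-0.46 ± 0.15) and the chromokinesin KIF4A (-0.56 ± 0.11) lie on that chromosome. The other 2 X-linked genes of these lists were the cohesin subunit SMC1A at 0.07 ± 0.09 and the centrin CETN2 at -0.46 ± 0.29. Of 11 cohesin genes 7 were higher in Holstein, with the cohesin ring subunit RAD21 at 0.44 ± 0.11 and sororin, CDCA5, at -0.21 ± 0.07. The 8 other condensin and chromosome periphery genes were divided 4 to 4, with TOP2B at 0.25 ± 0.09 and NCAPG2 at 0.08 ± 0.07.

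Among 23 other kinesins and spindle assembly factors 11 were higher in Holstein and 12 in Jersey. TACC1, of a family of centrosome and microtubule adaptors, was at -1.09 ± 0.17 (limma adjusted p = 0.122 on pair means and 0.00868 with the random block), the spindle protein SPAG5 at -0.33 ± 0.07 and the kinesin KIF18A, which limits chromosome swing, at 0.54 ± 0.19. Of the centrosome genes 8 were above 0 and 6 below, with the centriole assembly factor STIL at 0.49 ± 0.10, CETN3 at 0.30 ± 0.12 and PLK3 at -0.14 ± 0.07. Of the cytokinesis and abscission genes 9 were above 0 and 6 below. The abscission factor TSG101 was at 0.40 ± 0.10, the midbody kinase CIT at 0.32 ± 0.11 and CHMP4B at -0.42 ± 0.16, its highest probe being at 0.15.

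Other subunits and inhibitors of the anaphase-promoting complex were 8 above 0 and 6 below, with the ubiquitin-conjugating enzyme UBE2D1 at 0.50 ± 0.14, ANAPC16 at 0.32 ± 0.11 and the catalytic subunit ANAPC11 at -0.26 ± 0.09. Entry, exit and phosphatase genes were 12 above 0 and 10 below. The 3 catalytic subunits of protein phosphatase 1, which reverses mitotic phosphorylation, all passed with the random block and had 1 direction each on 8 of 8 arrays. PPP1CC was at 0.64 ± 0.09 and PPP1CB at 0.46 ± 0.10, higher in Holstein, and PPP1CA at -0.68 ± 0.12, higher in Jersey. The 3 PPP1CC probes ran from -0.22 to 0.64 and the 2 PPP1CA probes from -0.68 to -0.22.

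As a description of likeness, residual log ratios over the 8 arrays, after removing the mean of each dye orientation, were compared with Pearson correlation among 12316 named genes. These arrays share extracts in pairs, and the genes were picked as the highest of many. WEE1 was most like GAS2L3 (r = 0.98), PTTG1 most like MYO7A (r = 0.97) and KIF23 most like KHNYN (r = 0.99).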

How the data were processed

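RNA of day 6 embryos was measured on 8 two-colour arrays. Per the file headers, the deposited scanner files hold each spot's raw foreground and local background intensity in Cy3 and Cy5, uncorrected, and a further deposited column of the kind other that marks 131 ignored spots. In the authors' deposited value table each probe has a log2 ratio, with medians of 0.01, -0.02, 0.00, -0.01, 0.03, -0.04, 0.01 and -0.03 on arrays 1 to 8. How it was scaled and centred stays unknown. It correlated at -0.99 to -0.98 with the scanner ratios, so its direction is Jersey over Holstein. It served as an alternative only. No aligner applies, and scanner and software are not given in the sources used here. Per-sample columns left unassigned numbered 0.

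Values were recomputed in R 4.3.3 with limma 3.58.1: normexp background correction (offset 50), loess within arrays (weight 0 for control and ignored spots), and level quantiles (Aquantile) for intensities. Probes were retained if, for 1 breed or both, at least 4 arrays read above the mean plus 2 SD of 153 negative control spots. Pairs are not labelled. Among 24 matchings of opposite dye orientation, the one with the highest residual correlations was taken (0.46 to 0.71 within pairs, -0.36 to -0.02 otherwise), which makes neighbouring arrays pairs and was picked for that sum. Pair means were tested with lmFit and eBayes, Benjamini-Hochberg over 32129 probes. Of 21790 probes with a symbol, 20025 matched a RefSeq symbol and 1524 a synonym, which left 241 unmatched.

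The genes, lists and tests were chosen with earlier results of these data known. Full values are given for the 12 core mitosis genes of smallest p, and up to 3 genes of smallest p per other list. CDK1, PRC1, BUB1B, TFAP2A, KRT19, HBG and CD68 were chosen after seeing their values. The fit was tested on simulated data, with 50 of 32033 probes changed at each size. At an adjusted p under 0.05, pair means called 4% of changes of 0.5 log2 and 66% of changes of 1. A difference of 0.5 would thus mostly go uncalled. Changed probes were drawn at random from all 32033. The core mitosis genes spread more widely between pairs (median SD 0.39, against 0.23 over all named genes). The shares called may therefore be too high for them. Alternatives covered background, normalization, dim probes, replicates, pairing, slide, variance prior, value source, threshold and probe choice. No sequences were used here.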

Additional observations from a re-analysis of the deposited data

Results flagged for a closer look

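Among 66 sets of 4 pair values, 6 held a value far from the other 3 by Dixon's gap ratio. Chance alone flags about 1 in 20 independent sets. These sets share genes and arrays, so that rate is no yardstick for the 6. The median ratio of the core mitosis genes was -0.21 in pair 4, against 0.19 to 0.22 in the others. CCNB2 had a log2 ratio of -1.14 in pair 4, AURKB one of -0.87 in pair 4 and CDC25B one of -0.56 in pair 2. The Holstein level of SMC4 was 7.76 in pair 4, and the Jersey level of WEE1 was 8.16 in pair 3. Of these 6 values, 4 lay in pair 4, whose array 7 had the lowest share of probes above background.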

How the results depend on the processing

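With pair means and adjusted p under 0.05, the counts of probes, core mitosis genes and other mitosis genes called were 0 in most settings. Restricting the fit to probes detected in each channel of every array gave 48 called probes, and 3 core mitosis genes with an unadjusted p under 0.05 against 5. That fit held 36 of the 41 core mitosis genes, and SMC4, 1 of the 5, was not among them. A threshold of 0.10 gave 189 probes and 2 other mitosis genes. The 8 arrays with dye as a term and the replicate block gave 1209 probes, 0 core mitosis genes and 7 other mitosis genes. Without the block it gave 2054 probes, 16 other mitosis genes and 9 core mitosis genes at an unadjusted p under 0.05. The replicate block without array 7, chosen after the data were seen, gave 1106 probes, 1 core mitosis gene (KIF11, 1.39), 7 other mitosis genes and 8 unadjusted. The other matching within slides gave 3862 of 32129 kept probes, 4 core mitosis genes (PTTG1, ECT2, CDC25C and SMC2) and 29 other mitosis genes. It also gave 18 core mitosis genes with an unadjusted p under 0.05 and 7 with a slide difference. Each of its means mixes arrays of different pairs, and the calls therefore rest on the pairing used. Unadjusted calls were 11 with median centring and 2 with a trended, robust variance prior. Leaving out each pair gave 0 to 2 probes, 2 to 11 unadjusted core mitosis genes and a median of 0.00 to 0.20, the highest counts being without pair 4. Apart from the adjusted calls of the 8 arrays with the replicate block, no share of all named genes stands beside these counts. They are therefore not read as a result about the mitosis genes. CDC27 turned to 0.0028 with the mean of all its kept probes. In these reversals and changed counts the cause was not tested. Over the 12 genes with full values, 221 alternative values kept direction and side of the threshold, 5 passed it and 1 turned sign. The number of arrays limits precision, and INCENP, PLK1, CDC25A, TOP2A and SMC4 were not above background on every array for both breeds.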
